A study of Homo sapiens with 12 samples.

Results

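The 3 trefoil factor genes *TFF1*, *TFF2* and *TFF3* and the anterior gradient genes *AGR2* and *AGR3* were followed across RNA sequencing libraries of ZR-75-1, a human line of luminal, oestrogen receptor-expressing breast cancer. They were taken by gene symbol and make up 5 of the 60612 gene rows used. Cells carried a non-targeting control guide (sgControl) or had *RB1*, which encodes the retinoblastoma protein Rb, knocked out with CRISPR–Cas9. Both genotypes were grown in serum-containing medium and were kept for 5 days in DMSO or in abemaciclib at 500 nM, giving the groups sgControl in DMSO, sgControl in abemaciclib, *RB1* knockout in DMSO and *RB1* knockout in abemaciclib, each with 3 replicates. Knockout lines were expanded from single sorted cells per the study's methods, which do not describe such a step for the sgControl cells. How many clones stand behind the knockout is not given in the sources used here, so the effect of *RB1* loss and a difference between clones cannot be told apart in any comparison of the genotypes. What distinguishes the replicates of a group beyond their being called biological replicates is not described, so p-values measure the spread between these samples.

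Trefoil factors are small secreted peptides in which disulfide bonds between cysteines hold a compact trefoil fold. Mucus-secreting epithelia of the gut release them together with mucins, and in breast epithelium *TFF1*, long known as pS2, is a classical target of the oestrogen receptor. AGR2 and AGR3 are members of the protein disulfide isomerase family that reside in the endoplasmic reticulum, where such enzymes help secreted proteins to form their disulfide bonds, and AGR2 is needed for intestinal mucin production. Both are expressed in hormone receptor-positive breast cancers. Abemaciclib inhibits CDK4 and CDK6, the kinases that phosphorylate Rb and thereby release the cell cycle genes that Rb holds back.

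The members lie in 2 clusters. In GENCODE release 44 on GRCh38, *TFF3* spans chr21:42311667-42315409, *TFF2* chr21:42346357-42350997 and *TFF1* chr21:42362282-42366535, all on the minus strand. The gap from *TFF3* to *TFF2* is 30.9 kb and that from *TFF2* to *TFF1* 11.3 kb. *AGR2* (chr7:16791811-16833433) and *AGR3* (chr7:16859412-16881987) are also on the minus strand, 26.0 kb apart. *AGR3* overlaps the processed pseudogene *RAD17P1* on the same strand, which averaged 4.53 normalised counts, and the other members overlap no annotated gene. No stretch of 50 bases of any member transcript occurred in a transcript of another gene, and the longest run shared within a cluster was 15 bases, between *TFF1* and *TFF2*, so reads of the members could be told apart by sequence.

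The promoter table from RefSeq (GRCh38.p14) had entries for *AGR2* and *AGR3*, 2 of the 5 members. The 250 bases before each start are shown because the paired genes differed in their response to abemaciclib, as described below. Capitals mark matches, on either strand, to 5 motifs searched: GGTCA, the oestrogen response element half-site; GGTCANNNTGACC, the full element, which contains the half-site; TGTTTAC, a forkhead core; TTTCCCGC, an E2F core; and TATAAA, the core of the TATA box. The *AGR2* start used by RefSeq lies inside the GENCODE span of the gene, at chr7:16805000-16805249 for the window on the minus strand, and the *AGR3* window is chr7:16881984-16882233 on the minus strand.
AGR2: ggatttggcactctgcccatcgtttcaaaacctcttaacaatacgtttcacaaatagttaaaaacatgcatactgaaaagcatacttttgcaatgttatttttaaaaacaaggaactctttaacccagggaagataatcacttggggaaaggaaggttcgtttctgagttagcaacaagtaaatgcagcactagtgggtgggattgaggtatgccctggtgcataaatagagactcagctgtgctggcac
AGR3: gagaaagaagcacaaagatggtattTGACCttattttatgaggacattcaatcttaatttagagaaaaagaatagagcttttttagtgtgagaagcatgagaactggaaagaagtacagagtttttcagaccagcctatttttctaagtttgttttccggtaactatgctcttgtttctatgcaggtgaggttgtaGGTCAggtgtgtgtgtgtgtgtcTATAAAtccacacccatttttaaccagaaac
The *AGR3* window held 2 half-sites, at −225 and −54 from the start, and a TATAAA at −31. The *AGR2* window held no match to the 5 motifs. Of 35116 promoters, each searched over 250 bases before and 50 bases after the start, 37.4% held GGTCA, 0.0570% the full element, 3.42% TGTTTAC, 1.63% TTTCCCGC and 11.5% TATAAA. These entries are longer than the windows shown. The 50 bases after the *AGR2* and *AGR3* starts, searched too, held no further match. Matches describe letters in these windows and say nothing about binding.

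The libraries held 39907318 to 81636393 counts. *RB1* had 2090 to 7543 raw counts in the 6 sgControl libraries and 29 to 63 in the 6 knockout libraries. Every library thus matched the genotype in its label, and the treatment was not checked in this way. The 7 luminal markers checked (*ESR1*, *GATA3*, *FOXA1*, *KRT8*, *KRT18*, *KRT19* and *EPCAM*) all had group means of at least 6386 normalised counts, meaning counts divided by the DESeq2 size factor of the library. The basal and mesenchymal markers *KRT5*, *KRT14* and *VIM* summed to at most 8.07 normalised counts in a library and the leukocyte marker *PTPRC* to at most 3.40. Of the fibroblast markers, *COL1A1* had group means of 1940 to 2903, whereas *COL1A2* was at or near 0. *COL1A1* rose with abemaciclib in both genotypes (0.37 ± 0.07 and 0.43 ± 0.07 on the log2 scale), and the summed fibroblast markers did not overlap between treatments, with 2097 to 2392 against 2787 to 3031 in sgControl and 1879 to 2055 against 2556 to 2668 in knockout libraries. Their part in the responses was not tested. Of 4 markers of gastric and intestinal epithelium, tissues rich in trefoil factors, *GKN1* had no count in any library, *CDX2* and *VIL1* had group means of at most 5.69, and *MUC2* is described with the mucins. Mitochondrial genes took 2.82 to 4.13% of counts in DMSO and 5.44 to 8.53% in abemaciclib in both genotypes together. This share moved with treatment, and its part in the responses below was not tested. In these bulk samples, a change in the number of cells that make a transcript and a change in the amount per cell cannot be told apart.

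The first comparison asked how the members respond to CDK4/6 inhibition when *RB1* is intact. The trefoil factors rose steeply, *AGR3* rose to a smaller extent and *AGR2* hardly moved. *TFF1* had 82895, 67929 and 58531 normalised counts in sgControl replicates 1, 2 and 3 in DMSO and 431974, 379148 and 422535 in abemaciclib. Every treated library stood far above every untreated one, a 5.89-fold rise (log2 fold change 2.56 ± 0.11 (SE), adjusted p = 5.14e-127). *TFF1* took 0.127% of all counts in DMSO and 0.689% in abemaciclib on average, moving from rank 70 to rank 6 among all rows by mean normalised count.

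*TFF3*, the trefoil peptide that goblet cells secrete with their mucins, had 13520, 11011 and 9422 normalised counts in DMSO and 67661, 59559 and 71334 in abemaciclib. The groups were again widely separated. Its rise was 5.85-fold (log2 fold change 2.55 ± 0.11, adjusted p = 2.61e-110), and its rank moved from 920 to 87. *TFF2*, known chiefly as the spasmolytic peptide of gastric mucous neck cells, was close to silent in DMSO with 4, 1 and 6 raw counts. In abemaciclib the raw counts were 239, 223 and 239. Per unit of depth the summed counts differed 75.8-fold (95% exact interval 42.1 to 153, counting error only), and the fitted log2 fold change was 6.26 ± 0.49 (adjusted p = 3.71e-36). *TFF2* was at rank 10420 in abemaciclib.

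*AGR3* had 3172, 2545 and 2270 normalised counts in DMSO and 5459, 5034 and 5289 in abemaciclib. There was no overlap between the groups, and the rise was 1.98-fold (log2 fold change 0.98 ± 0.10, adjusted p = 1.36e-20). *AGR2* had 72630, 59564 and 52412 normalised counts in DMSO and 76806, 71975 and 72770 in abemaciclib. Its groups overlapped, since DMSO replicate 1 exceeded the lowest treated library. The 1.20-fold rise passed the threshold (log2 fold change 0.26 ± 0.10, adjusted p = 0.0141) but lost the call without DMSO replicate 2 (0.24, adjusted p = 0.0642) or 3 (0.16, adjusted p = 0.0899), without abemaciclib replicate 1 (0.24, adjusted p = 0.0624), when only the sgControl groups were fitted (0.24, adjusted p = 0.0759) and with total-count factors (0.14, adjusted p = 0.107). Without DMSO replicate 1 it was 0.40 (adjusted p = 7.40e-10). All 5 members were thus called higher. Of 23512 genes tested in this comparison, 47.9% were called in either direction, 24.1% higher and 23.9% lower.

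The untreated sgControl libraries differed from one another more than those of other groups over all genes. The chi-square statistic per gene, which grows with depth, was 105 between replicates 1 and 3, 50.2 between 1 and 2 and 18.1 between 2 and 3, against 3.49 to 17.9 for pairs in the other groups. Among the members, replicate 1 was the highest and replicate 3, the deepest library, the lowest for *TFF1*, *TFF3*, *AGR2* and *AGR3* alike. *TFF2*, with at most 6 counts per library, did not show this order. Without replicate 1 the responses in sgControl cells were 2.6998 for *TFF1*, 6.44 for *TFF2*, 2.69 for *TFF3*, 1.13 for *AGR3* and 0.40 for *AGR2* on the log2 scale, all called.

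**Figure D1:**
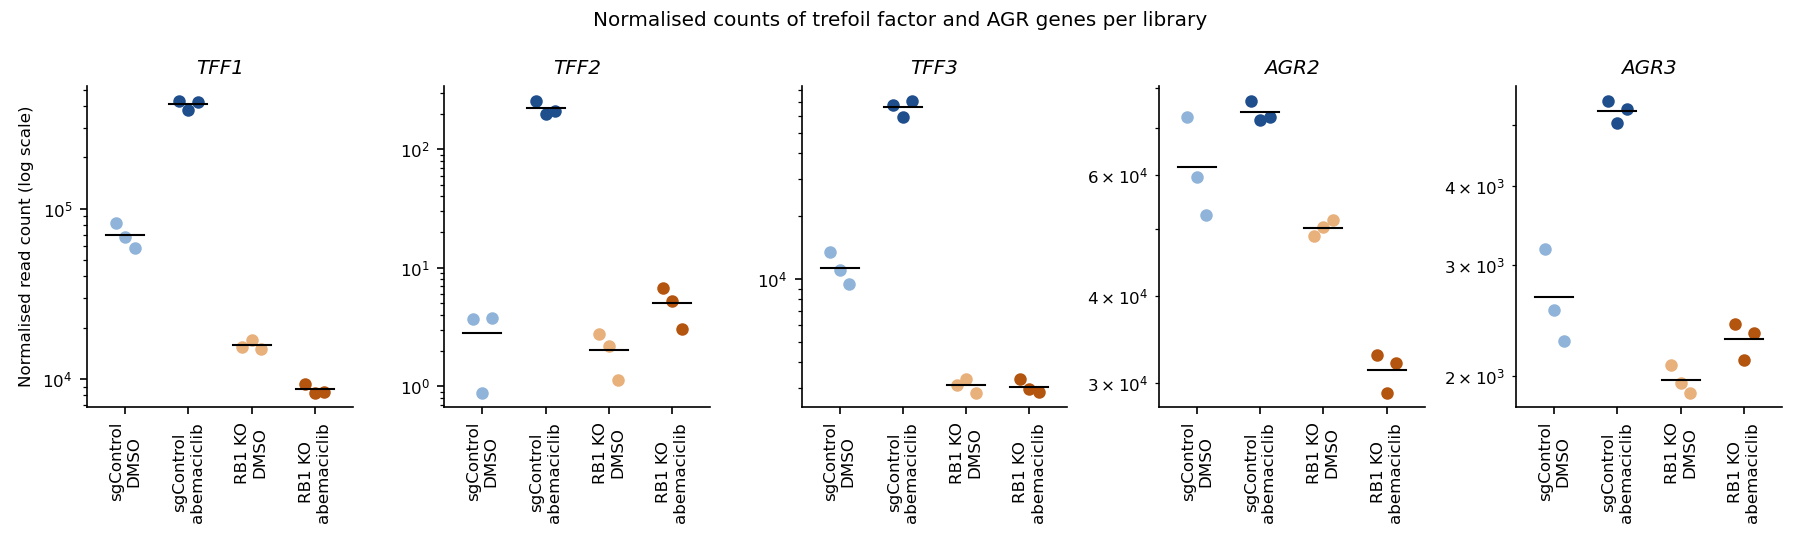
Normalised read counts (log axis, a separate scale for each gene) of *TFF1*, *TFF2*, *TFF3*, *AGR2* and *AGR3* in each library of the 4 groups, with a point per library and a line at the group mean (n = 3). The sgControl libraries in abemaciclib stand above all others for every gene except *AGR2*, where 1 sgControl library in DMSO reached 72630 against a lowest treated value of 71975.

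The second comparison asked the same of cells without *RB1*. Here the members moved apart. *TFF1* and *AGR2* fell, no change passed the test for *TFF3*, *TFF2* and *AGR3*, and none rose past the threshold. *TFF1* had 15394, 16945 and 14939 normalised counts in knockout cells in DMSO and 9319, 8279 and 8409 in abemaciclib. Every treated library was below every untreated one, a 1.82-fold fall (log2 fold change −0.86 ± 0.11, adjusted p = 2.82e-14).

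*AGR2* had 48951, 50335 and 51523 normalised counts in knockout cells in DMSO and 32903, 29019 and 31998 in abemaciclib. The groups were separate and tight, with a 1.61-fold fall (log2 fold change −0.68 ± 0.10, adjusted p = 3.19e-11). *AGR3*, its close neighbour, had 2083, 1951 and 1880 normalised counts in DMSO and 2416, 2115 and 2339 in abemaciclib. Although the groups did not overlap, the log2 fold change of 0.22 ± 0.11 missed the threshold (adjusted p = 0.109). It passed in 5 of 19 alternative analyses, among them the fit restricted to the knockout groups (adjusted p = 0.00395), the fits without sgControl DMSO replicate 1 (adjusted p = 0.00422) or 3 (adjusted p = 0.0330), that with total-count factors (adjusted p = 0.0396) and that with a replicate block (adjusted p = 0.0446).

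*TFF3* had 3118, 3319 and 2858 normalised counts in DMSO and 3309, 2976 and 2889 in abemaciclib. These ranges lay over one another, and the log2 fold change of −0.02 ± 0.12 had a 95% interval from −0.24 to 0.21 (adjusted p = 0.932). *TFF2* had 2, 2 and 1 raw counts in DMSO and 6, 5 and 3 in abemaciclib. The ratio of summed counts was 2.50, with a 95% exact interval of 0.850 to 8.86 (adjusted p = 0.206 in the fit). These low counts thus do not decide between no change and a change within these bounds. Members called in knockout cells therefore numbered 2, both lower, while 30.1% of 18506 genes tested were called, 15.0% higher and 15.1% lower.

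Whether the responses of the genotypes differed was tested as an interaction. All 5 members responded less, or in the opposite direction, without *RB1*. The interaction on the log2 scale was −3.42 ± 0.15 for *TFF1* (adjusted p = 1.44e-112), −2.57 ± 0.16 for *TFF3* (adjusted p = 4.33e-55) and −4.94 ± 0.92 for *TFF2* (adjusted p = 5.14e-07). For the AGR genes it was smaller and similar in size, −0.95 ± 0.14 for *AGR2* (adjusted p = 2.49e-11) and −0.77 ± 0.15 for *AGR3* (adjusted p = 1.09e-06). Over all 21008 genes tested, 41.2% had an interaction past the threshold. For 21.0% the knockout response was the higher one and for 20.2% the lower. The 5 members thus stood on the lower side in a comparison in which about 1 in 5 genes did. Total-count factors move the median gene by −0.13 in sgControl cells and by 0.14 in the interaction on the log2 scale, and all 5 interactions kept their sign and call under them.

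**Figure D2:**
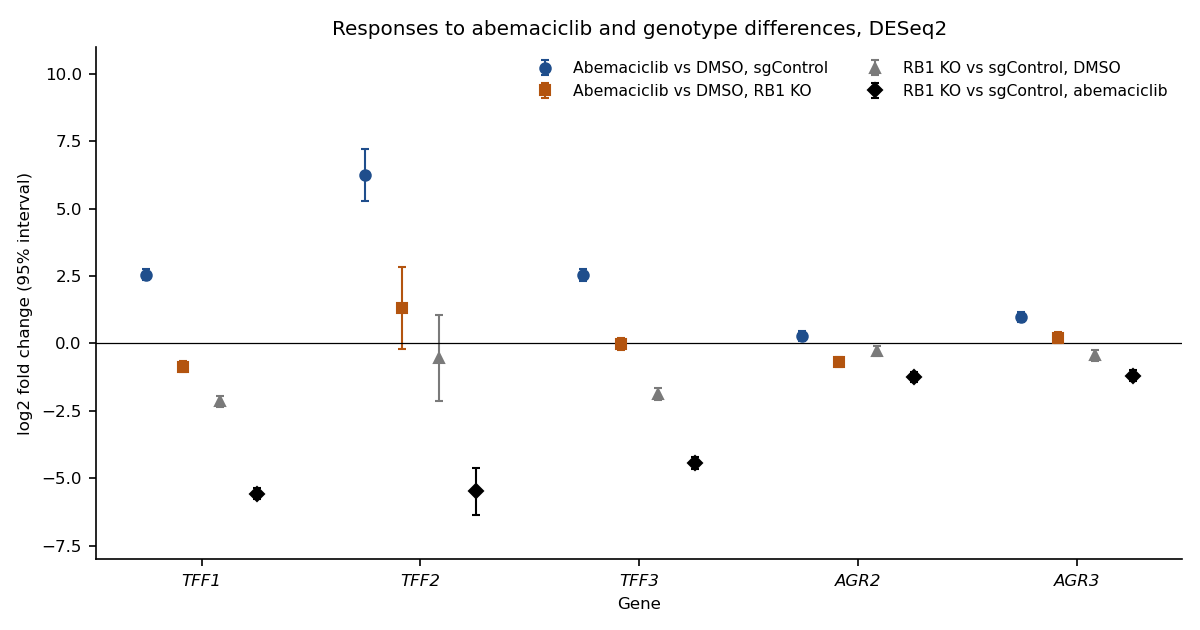
Log2 fold changes (y axis, with 95% intervals) of the 5 genes for abemaciclib against DMSO in each genotype and for *RB1* knockout against sgControl in each treatment. The trefoil factors sit above 2 in sgControl cells in abemaciclib, whereas *TFF1* and *AGR2* sit below 0 in the knockout, and all 5 genotype differences in abemaciclib lie below −1.

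The genotypes were then compared within each treatment. These comparisons use the same libraries as the responses above and are given as each comparison's own values. In DMSO, before any drug, the knockout already had less trefoil factor RNA. *TFF1* was 4.43-fold lower (log2 fold change −2.15 ± 0.11, adjusted p = 3.20e-88) and *TFF3* 3.65-fold lower (−1.87 ± 0.11, adjusted p = 1.40e-57), with no overlap between genotypes for either. *AGR3* was 1.35-fold lower (−0.43 ± 0.10, adjusted p = 0.000246) and *AGR2* 1.22-fold lower (−0.29 ± 0.10, adjusted p = 0.00987). The groups of both AGR genes were separate, but by little for *AGR2*, whose lowest sgControl library had 52412 and highest knockout library 51523 normalised counts. Its call was lost without knockout DMSO replicate 1 (−0.27, adjusted p = 0.0531), and its size fell to −0.16 without sgControl DMSO replicate 1 (adjusted p = 0.0326). *TFF2*, with 11 and 5 counts summed over the groups, gave a ratio of 0.685 (95% exact interval 0.187 to 2.14). With 4 members called lower, the background was 31.4% of 19757 genes called, 16.2% higher and 15.2% lower.

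In abemaciclib all 5 members were lower in the knockout, and for each of them no knockout library reached the level of any sgControl library. How many of all genes were separated in this way was not counted. *TFF1* was 47.4-fold lower (log2 fold change −5.57 ± 0.11) and *TFF3* 21.6-fold lower (−4.44 ± 0.11), both with adjusted p below what double precision can hold. The summed counts of *TFF2* were 701 and 14, a ratio of 0.0226 (95% exact interval 0.0123 to 0.0381, fitted adjusted p = 9.71e-34). *AGR2* and *AGR3* were lower by nearly equal amounts, 2.36-fold (−1.24 ± 0.10, adjusted p = 4.27e-37) and 2.30-fold (−1.20 ± 0.10, adjusted p = 5.81e-30). In this comparison 53.9% of 22260 genes were called, 27.5% higher and 26.4% lower, so a call on its own says little. On the log2 scale the trefoil factor differences were several times those of the AGR genes.

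The order of the members by level was taken per kilobase of annotated exon. If these were 3′ libraries, as the study's general methods describe, counts would not depend on length and this scale would not apply. In sgControl cells in DMSO the order was *TFF1* (141840 ± 24975 normalised counts per kb (SD, n = 3)), *AGR2* (22263 ± 3709), *TFF3* (12275 ± 2241), *AGR3* (2309 ± 401) and *TFF2* (4.00 ± 2.37). In abemaciclib *TFF3* (71784 ± 6534) passed *AGR2* (26719 ± 937), with *TFF1* at 835811 ± 57261, *AGR3* at 4563 ± 186 and *TFF2* at 317 ± 45.2. In the other 3 groups *AGR2* stood above *TFF3* on this scale.

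In knockout cells *TFF1* lay closer to *AGR2*. *TFF1* had 32032 ± 2138 normalised counts per kb in DMSO and 17620 ± 1152 in abemaciclib, against 18187 ± 466 and 11327 ± 735 for *AGR2*. *TFF3* followed with 3360 ± 250 and 3316 ± 241, then *AGR3* with 1710 ± 89.4 and 1986 ± 135, and *TFF2* was last with 2.90 ± 1.16 and 7.19 ± 2.71. Neighbours in each of these orders did not overlap between libraries. With the length of the longest transcript in place of all exons, *AGR2* (18448) came above *TFF1* (17620) in knockout cells in abemaciclib.

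The ratio of neighbouring genes inside a library does not depend on how libraries are scaled. *TFF1* and *TFF3* kept nearly the same ratio in sgControl cells although both rose nearly 6-fold. The libraries had 6.13, 6.17 and 6.21 *TFF1* counts per *TFF3* count in DMSO and 6.38, 6.37 and 5.92 in abemaciclib. The mean log2 ratio was 2.63 ± 0.01 (SD, n = 3) and 2.64 ± 0.06, a difference of 0.01 (exact permutation p = 1, two-sided). In knockout cells the ratios were 4.94, 5.11 and 5.23 in DMSO and 2.82, 2.78 and 2.91 in abemaciclib. The balance thus moved towards *TFF3* in knockout cells, by −0.28 in DMSO relative to sgControl and by a further −0.84 with the drug, on the log2 scale.

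The ratio of *AGR2* to *AGR3* moved mainly with the drug, by similar amounts in both genotypes. There were 22.9, 23.4 and 23.1 *AGR2* counts per *AGR3* count in sgControl libraries in DMSO and 14.1, 14.3 and 13.8 in abemaciclib. Knockout libraries had 23.5, 25.8 and 27.4 in DMSO and 13.6, 13.7 and 13.7 in abemaciclib. The log2 ratio changed by −0.72 in sgControl and by −0.90 in knockout cells with treatment, and differed between genotypes by 0.14 in DMSO and −0.04 in abemaciclib. All of these ratio comparisons other than that of *TFF1* to *TFF3* in sgControl cells separated the groups completely, with an exact permutation p of 0.1 each (0.114 adjusted over 8 comparisons). With 3 against 3 libraries 0.1 is the smallest p possible, so none could pass 0.05.

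**Figure D3:**
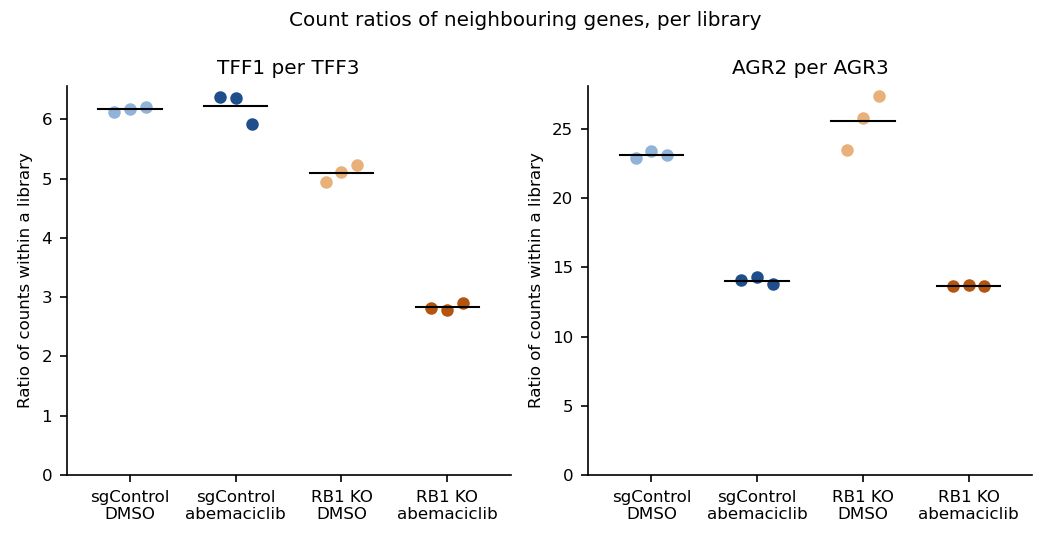
Counts of *TFF1* per count of *TFF3* (left) and of *AGR2* per count of *AGR3* (right) in each library (points) of the 4 groups, with a line at the mean of the 3 libraries and axes starting at 0. The left ratio lies near 6 in all sgControl libraries and under 3 in treated knockout libraries, and the right ratio lies near 14 in the treated libraries of both genotypes.

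*TFF2* relative to *TFF1* was higher with the drug in both genotypes. Per 100000 *TFF1* counts, sgControl libraries held 4.49, 1.30 and 6.46 *TFF2* counts in DMSO and 59.6, 52.1 and 49.8 in abemaciclib. Knockout libraries held 17.7, 13.0 and 7.61, then 72.9, 63.6 and 36.0. The treated libraries were above the untreated ones throughout, but the knockout values rest on 1 to 6 *TFF2* counts each.

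Genes around each cluster were examined to see whether the responses were shared by the region. Within 500 kb of the trefoil factor cluster, 17 of 31 annotated genes had a count and 9 a mean of at least 100 normalised counts, members included. *RSPH1*, which encodes a protein of the radial spokes of motile cilia, rose in sgControl cells as much as *TFF1* and *TFF3* did (log2 fold change 2.53 ± 0.13, adjusted p = 1.75e-83). Unlike them it also rose without *RB1* (0.78 ± 0.18, adjusted p = 0.000175), and its interaction was −1.75 ± 0.22. The mean of *RSPH1* over all libraries reached 100 only through sgControl cells in abemaciclib, so the rule for naming neighbours favoured it. *ABCG1*, a cholesterol transporter next to *TFF3*, rose by 0.47 ± 0.08 in sgControl cells and *SLC37A1* by 0.55 ± 0.09, whereas *WDR4* fell there by 1.89 on the log2 scale (SE 0.12). *WDR4* fell in the knockout too (−0.63 ± 0.11, adjusted p = 3.58e-07). *PRDM15* (0.10 ± 0.13) and *ZBTB21* (−0.11 ± 0.13) did not pass the test in either genotype, and *C2CD2* rose by 0.56 ± 0.20 in sgControl cells (adjusted p = 0.0123), a call lost without DMSO replicate 1 (adjusted p = 0.0799) and with total-count factors (adjusted p = 0.0975). Among weaker genes, *TMPRSS3*, a membrane serine protease gene 5.35 kb from *TFF1* with a mean of 55.2 normalised counts, was chosen after its values were seen. It rose by 2.56 ± 0.24 in sgControl cells (adjusted p = 7.96e-25) and was at 0.40 ± 0.43 in the knockout. *UMODL1* (mean 9.59 normalised counts) and *PDE9A* (mean 43.7), also named after their values were seen, rose in sgControl cells. Their log2 fold changes there were 4.12 ± 0.85 (adjusted p = 4.17e-06) and 1.28 ± 0.30 (adjusted p = 7.84e-05). Neither passed the test in the knockout. No weaker gene around this cluster was called lower in sgControl cells.

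Within 500 kb of *AGR2* and *AGR3*, 10 of 23 annotated genes had a count and 7 a mean of at least 100, members included. *TSPAN13*, a tetraspanin gene 7.275 kb from *AGR2*, rose by 0.40 ± 0.07 in sgControl cells and changed by −0.20 ± 0.07 in knockout cells (adjusted p = 0.0182). That call was lost without knockout DMSO replicate 1 (adjusted p = 0.0988) or 3 (adjusted p = 0.0640) or abemaciclib replicate 2 (adjusted p = 0.10). In abemaciclib it was lower in the knockout by −1.22 ± 0.07, close to the −1.24 and −1.20 of the AGR genes. *ANKMY2* (0.86 ± 0.07) and *AHR*, the aryl hydrocarbon receptor gene (0.83 ± 0.08), rose in sgControl cells, and neither passed the test in the knockout (adjusted p = 0.0633 and 0.163). *BZW2* fell in sgControl cells (−0.34 ± 0.07), and its fall in the knockout (−0.22 ± 0.07, adjusted p = 0.00868) was lost without DMSO replicate 3 (adjusted p = 0.0502) or abemaciclib replicate 2 (adjusted p = 0.0637). Chromosome-wide shifts were small. The median log2 fold change over 104 expressed genes of chromosome 21 was −0.07 in sgControl cells and 0.02 for the genotypes in DMSO, and over 536 genes of chromosome 7 it was −0.04 and −0.02.

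**Figure D4:**
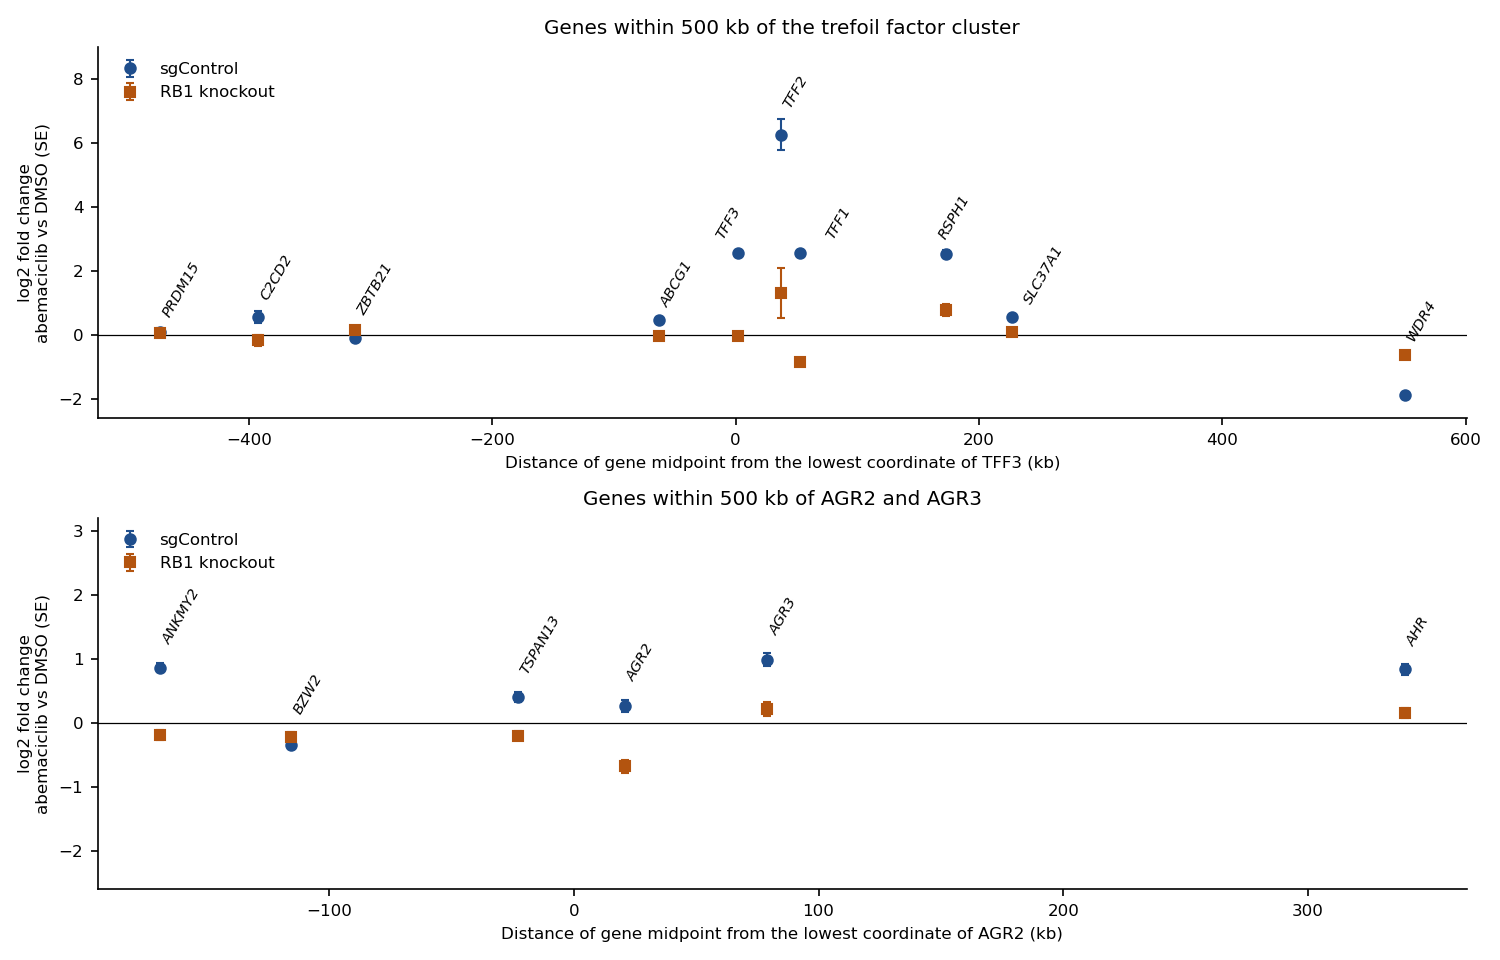
Log2 fold change for abemaciclib against DMSO (y axis, bars ± SE) of the members and of the reported genes with a mean of at least 100 normalised counts within 500 kb of the trefoil factor cluster (top) and of *AGR2* and *AGR3* (bottom), against distance in kb (x axis), in sgControl and *RB1*-knockout cells. *RSPH1*, which passed the mean of 100 only through sgControl cells in abemaciclib, stands beside *TFF1* and *TFF3* at about 2.5 in sgControl cells. The other genes plotted beside the trefoil factors lie at 0.56 or below there.

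Genes whose pattern over the 12 libraries was most like that of a member were sought among 11884 others with a mean of at least 100 normalised counts, by the root mean square difference of log2(normalised count + 1) centred on each gene's mean. For *TFF1* these were *ABCC11*, an ATP-binding cassette transporter gene (0.43), *IGFBP5*, which encodes a binding protein of insulin-like growth factors (0.45), and *TFF3* (0.46). *ABCC11* and *IGFBP5* also went up in sgControl cells (log2 fold changes 1.76 and 1.97) and down in the knockout (−0.80 and −1.27). For *TFF3* the closest were *AP000844.2* (0.38), the ethanolamine kinase gene *ETNK2* (0.39) and *CRYM* (0.40). These went up in sgControl cells too (log2 fold changes 2.79, 1.73 and 1.54). In the knockout they were at 0.79, 0.65 and −0.40, where *TFF3* was at −0.02. The AGR genes had closer matches, *SLC9A3R2* (0.08), *CIDECP1* (0.12) and *MARCHF2* (0.12) for *AGR2*, and the copper chaperone gene *ATOX1* (0.06), *TSTD1* (0.07) and the cytochrome b5 gene *CYB5A* (0.08) for *AGR3*. *AGR2* and *AGR3* differed from each other by 0.41, so that *AGR3* stood at place 2911 in likeness to *AGR2*. These are descriptions of the same 12 libraries and carry no test.

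Mucins are the proteins with which trefoil factors are secreted. Of 16 mucin genes listed, 12 were tested in sgControl cells, where 6 rose and 3 fell with abemaciclib (median log2 fold change 1.58, against 0.01 for all genes tested, of which 24.1% rose and 23.9% fell). *MUC2*, the main gel-forming mucin of the intestine, rose from 20.5 to 829.9 normalised counts (5.36 ± 0.22, adjusted p = 2.01e-126). Its mean over the 12 libraries reached 100 only through this treated group, so the rule for naming genes favoured it. *MUC5B*, a gel-forming mucin of airways and salivary glands, rose by 1.83 ± 0.21, and *MUC3A*, a membrane mucin, fell by 2.42 on the log2 scale (SE 0.23). *MUC1*, the membrane mucin of breast epithelium, rose by 1.26 ± 0.11. *MUC6*, *MUC19* and *MUC20* also rose and *MUC5AC* and *MUC16* fell, all with means over the 12 libraries under 100 and named after their values were seen. In knockout cells 2 of 9 tested rose, *MUC20* and *MUC1* (0.43 ± 0.11, adjusted p = 0.000307), and 2 fell, *MUC5AC* and *MUC19*, while *MUC2* had 5.80 normalised counts in DMSO and 6.32 in abemaciclib. Of all genes 15.0% rose there and 15.1% fell. The interaction was lower for 5 of 12 and higher for 2, against 20.2% and 21.0% of all genes, with *MUC2* at −5.26 ± 0.57. In DMSO 5 of 10 tested mucin genes were higher in the knockout and 4 lower (median 0.41), where 16.2% and 15.2% of all genes were. *MUC5B* (−1.34 ± 0.21) and *MUC2* (−1.76 ± 0.43) were lower, as were *MUC6* and *MUC19*, whereas *MUC3A* (1.14 ± 0.15), *MUC1* (0.30 ± 0.11), *MUC5AC*, *MUC16* and *MUC20* were higher.

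Of 12 genes for reported partners and receptors of trefoil factors and AGR proteins, 4 rose and 4 fell in sgControl cells (median 0.62 among 10 tested), beside 24.1% and 23.9% of all genes. *CXCR4*, a chemokine receptor to which trefoil peptides have been reported to bind, rose from 62.4 to 1044 normalised counts (4.05 ± 0.15, adjusted p = 1.23e-161). Its mean over all libraries passed the rule for naming genes only through sgControl cells in abemaciclib, so that rule favoured it. *FCGBP*, which encodes a mucus protein that binds TFF3 and was named after its values were seen, rose from 10.8 to 102 normalised counts (3.23 ± 0.38, adjusted p = 1.70e-16). *DAG1* and *LINGO3* rose too. *EGFR*, the epidermal growth factor receptor gene, fell by 2.21 on the log2 scale (SE 0.22) and *F2RL1*, which encodes protease-activated receptor 2, by 1.75 (SE 0.09). *LYPD3*, encoding the surface receptor C4.4A for which AGR proteins have been described as ligands, fell in both genotypes (−0.97 ± 0.07 and −0.35 ± 0.07), as did the chemokine receptor gene *ACKR3*. In the knockout 4 of 9 tested rose and 2 fell, beside 15.0% and 15.1% of all genes, with *EGFR* (0.62 ± 0.17), *F2RL1* (0.30 ± 0.08) and *LINGO2* on the rising side. The rise of *CXCR4* there (0.55 ± 0.23, adjusted p = 0.0491) was lost in 13 of 19 alternative analyses, with adjusted p up to 0.286. The knockout thus had more *EGFR* in abemaciclib by 3.75 ± 0.21 and less *CXCR4* by −4.36 ± 0.17.

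Of 13 genes for transcription factors linked to these clusters or to secretory cells, 12 were tested, of which 7 rose and 4 fell in sgControl cells (median 0.29), where 24.1% and 23.9% of all genes did. *ESR1*, the oestrogen receptor gene, rose by 0.59 ± 0.10 and *XBP1*, which encodes a factor of secretory cells and of the unfolded protein response, by 0.51 ± 0.08. The pioneer factor gene *FOXA1* rose by 0.46 ± 0.05 and *GATA3*, a factor of luminal cells, by 0.28 ± 0.06. *PGR*, the progesterone receptor gene, rose by 0.30 ± 0.10 but not with total-count factors (adjusted p = 0.304) or in the fit of the sgControl groups alone (adjusted p = 0.0545). *SPDEF*, a factor of goblet cells, was at 0.06 ± 0.07 (adjusted p = 0.573). *FOXA3* (−1.42 ± 0.09), *KLF4* (−0.51 ± 0.07) and *CREB3L4* (−0.42 ± 0.06) fell, as did *ATOH1*, a goblet cell fate gene named after its values were seen, from 31.6 to 1.83 normalised counts.

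*CREB3L1*, a membrane-bound factor activated in secretory cells, moved as *TFF1* did in direction. It rose by 1.00 ± 0.09 in sgControl cells, fell by 0.69 on the log2 scale in knockout cells (SE 0.10) and had an interaction of −1.69 ± 0.14 (adjusted p = 1.58e-33). *ESR1* also fell in the knockout (−0.39 ± 0.10), as did *GATA3* (−0.21 ± 0.06), *SPDEF* (−0.35 ± 0.07), *FOXA3* (−0.51 ± 0.09) and *CREB3L4* (−0.44 ± 0.06), whereas *PGR* (1.06 ± 0.10) and *ATOH1* (1.01 ± 0.31) rose. In all, 2 rose and 6 fell there, beside 15.0% and 15.1% of all genes. *XBP1* (−0.04 ± 0.08), *FOXA1* (−0.12 ± 0.06) and *KLF4* (0.02 ± 0.07) did not pass the test. The interaction was lower for 7 of the 12 and higher for 4, beside 20.2% and 21.0% of all genes.

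**Figure D5:**
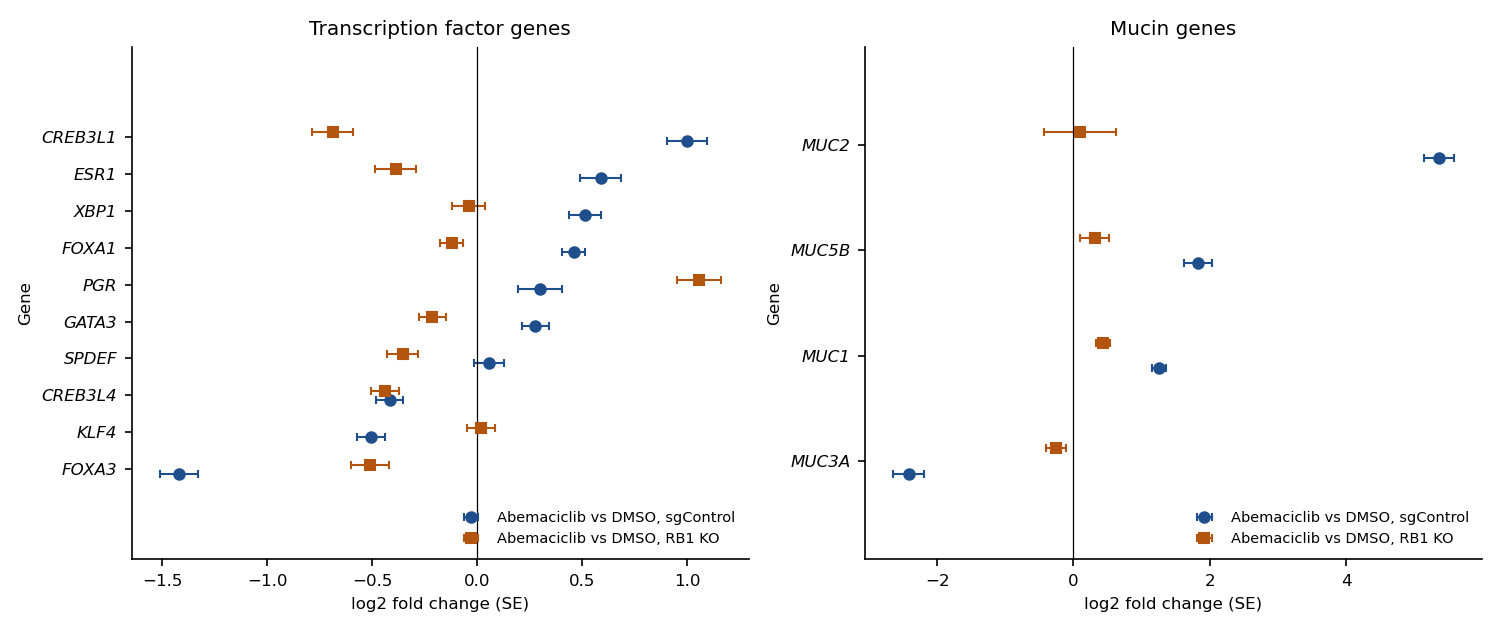
Log2 fold change for abemaciclib against DMSO (x axis, bars ± SE) of the reported transcription factor genes (left) and mucin genes (right) with a mean of at least 100 normalised counts, in sgControl and *RB1*-knockout cells. *CREB3L1*, *ESR1* and *GATA3* lie on opposite sides of 0 in the 2 genotypes. So do *FOXA1* and *XBP1*, which did not pass the test in the knockout, and *SPDEF*, which did not pass it in sgControl cells. *MUC2*, which passed the mean of 100 only through sgControl cells in abemaciclib, lies at 5.36 in sgControl cells and 0.10 (SE 0.53) in the knockout, where its counts were low.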

How the data were processed

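RNA of ZR-75-1 cells was measured in 12 libraries, 3 for each of 4 groups, grouped by their titles. The deposited table holds raw read counts per gene, which the authors made by trimming with BBDuk, aligning to hg38 with STAR 2.7.5b and counting with featureCounts 2.0.1 (versions from the submitters' processing notes). Neither strand nor multi-mapping settings are given in the sources used here. The labels name a directional whole-transcript kit, whereas a 3′ kit appears in the general methods of the study. The 44 rows named NA (0% of counts) were left out.

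One DESeq2 1.42.0 model (R 4.3.3) with group as its only term was fitted to the 12 samples over all rows with a count. It used median-of-ratios factors, no shrinkage, two-sided Wald tests and Benjamini–Hochberg adjustment over the genes left by independent filtering. An adjusted p under 0.05 was called. Adjusted p-values are from this fit. Errors of counts are SD over 3 libraries and depend on a depth of 39907318 to 81636393 counts. Alternatives included edgeR 4.0.16, other scaling factors, a filter of 10 counts in 3 samples, leaving out each library and a replicate block. Both tools were tested on simulated counts in which 200 of 29545 genes were changed. In the sgControl comparison 20 of 218 calls by DESeq2 and 11 of 209 by edgeR were false, both shares above the threshold. In the interaction 28 of 211 calls by DESeq2, above the threshold, and 7 of 189 by edgeR, below it, were false. These shares need not hold in the data, where far more genes were called. No call of a member changed with edgeR.

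Members and gene lists were chosen with earlier results of these data known. Beside the members and *RB1*, the text names, for each list and comparison, up to 3 called genes with the largest absolute change and a mean of at least 100 normalised counts, all transcription factors of the list above that mean, neighbours within 500 kb and the 3 genes most like each member. Further genes of the lists and the neighbours *TMPRSS3*, *UMODL1* and *PDE9A* were named after their values were seen. Some genes that the rule would name are not reported here, though the counts of the lists and neighbours include them.

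Every same-numbered pair correlated above 0.1 only in abemaciclib between the genotypes, where the correlations were 0.15, 0.26 and 0.11. Between DMSO and abemaciclib in sgControl cells they were 0.25, 0.22 and −0.08. Elsewhere at least 1 pair fell below 0.1, so the numbers were not taken to pair the samples there. Positions are 1-based, from GENCODE release 44, in which 22932 of the 32270 rows with a count were found by symbol. That release may differ from the one the authors counted against.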

Additional observations from a re-analysis of the deposited data

Results flagged for a closer look

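For each member the response to abemaciclib differed between knockout and sgControl cells when the difference itself was tested in DESeq2. The knockout response minus the sgControl response, on the log2 scale, was −3.42 for *TFF1*, −4.94 for *TFF2*, −2.57 for *TFF3*, −0.95 for *AGR2* and −0.77 for *AGR3*. *TFF1* and *AGR2* moved in opposite directions in the genotypes (2.56 and −0.86, and 0.26 and −0.68). Genotype and clone cannot be told apart in these differences.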

How the results depend on the processing

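Of 470 alternative values for the members, 456 kept their direction and their side of the threshold. *AGR2* in sgControl cells lost its call in 5 analyses (adjusted p up to 0.107) and *AGR2* between genotypes in DMSO in 1 (adjusted p = 0.0531), and *AGR3* in knockout cells gained a call in 5. *TFF3* in knockout cells, at −0.02, changed sign in 3 fits that each left out a library, to 0.034, 0.00054 and 0.019 (range over all such fits −0.081 to 0.034), and was called in none (adjusted p from 0.701 to 1). The number of members called was 4 or 5 in sgControl cells, 2 or 3 in knockout cells and 3 or 4 between genotypes in DMSO, and 5 throughout for the interaction and between genotypes in abemaciclib. The log2 ratio of *TFF1* to *TFF3* in sgControl cells ranged from −0.0070 to 0.047 when 1 library was left out, against 0.01 with all. With the replicate block, *TFF1* was at 2.57 in sgControl and −0.87 in knockout cells, and the only member call that changed was that of *AGR3* in knockout cells (0.22, adjusted p = 0.0446). The causes of these changes were not tested. Depth limits *TFF2*, with 1 to 6 counts in libraries outside sgControl in abemaciclib.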

Other observations

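Other genes of the protein disulfide isomerase family, to which AGR2 and AGR3 belong, moved in both directions. They were listed together with the oxidase genes *ERO1A* and *ERO1B*, which are not members of the family and are included in the counts below. Of 20 listed, 19 were tested, and in sgControl cells 9 rose and 3 fell with abemaciclib (median log2 fold change 0.13), beside 24.1% and 23.9% of all genes. *ERP27*, which encodes a non-catalytic member of the family, rose by 2.35 ± 0.13, more than *AGR3*, and the oxidase gene *ERO1B* by 1.01 ± 0.14, whereas *ERO1A*, its paralogue, fell by 1.21 on the log2 scale (SE 0.07). In knockout cells 3 rose and 5 fell (median −0.02), beside 15.0% and 15.1% of all genes, with *ERP27* at 0.47 ± 0.14 and *PDIA5* at 0.36 ± 0.08 on the rising side. The fall of *TXNDC5* there (−0.31 ± 0.10, adjusted p = 0.0129) was lost without knockout DMSO replicate 2 (adjusted p = 0.0660) or abemaciclib replicate 3 (adjusted p = 0.0759). The number that fell in knockout cells was 2 to 7 across the alternative analyses, with 2 without either of these libraries, 3 without knockout DMSO replicate 1 and 7 when only the groups compared were fitted. In sgControl cells it was 5 with total-count factors and 3 in the other analyses. In abemaciclib 12 were lower and 3 higher in the knockout, beside 26.4% and 27.5% of all genes.

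Of 18 genes for chaperones, stress sensors, degradation proteins and stress response factors linked to the endoplasmic reticulum, 17 were tested. In sgControl cells 11 rose and 2 fell, and in knockout cells 1 rose and 9 fell (medians 0.28 and −0.26). The shares of all genes called higher and lower were 24.1% and 23.9% with *RB1* intact, and 15.0% and 15.1% without it. *DNAJB9*, a co-chaperone gene, rose by 1.14 ± 0.09, *HERPUD1* by 0.85 ± 0.07 and *SEL1L* by 0.76 ± 0.09 in sgControl cells, the latter genes both encoding parts of the degradation machinery of the endoplasmic reticulum. In knockout cells *HSPA5*, the main chaperone gene of this compartment, fell by 0.55 on the log2 scale (SE 0.05), *HERPUD1* by 0.46 (SE 0.08) and *MANF* by 0.44 (SE 0.09). The interaction was lower for 11 of the 17 and higher for 1, beside 20.2% and 21.0% of all genes, with *HERPUD1* at −1.31 ± 0.11. Across the alternative analyses the 2 that fell in sgControl cells were 1 to 5, with 5 under total-count factors and 1 without sgControl DMSO replicate 1 or abemaciclib replicate 2, and the 1 that rose in knockout cells was 0 to 2, with 2 without knockout DMSO replicate 3 or sgControl abemaciclib replicate 3.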
